A study of Homo sapiens with 12 samples.

Results

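The genes described here are the axon guidance ligands and receptors in MDA-MB-231, a long-established cell line from a human triple-negative breast cancer. They were taken by gene name: semaphorins (SEMA), plexins (PLXN), ephrins (EFNA and EFNB), Eph receptors (EPHA and EPHB), Slits, netrins (NTN), the receptors named UNC5, and NRP1, NRP2, ROBO1, ROBO2, ROBO3, DCC and NEO1. Of the 60234 genes in the count table, 74 were members, and 10 more whose names fit (SLITRK genes, antisense genes and intronic transcripts) were dropped. One member row that carries the symbol EFNA3 (ENSG00000251246) is the readthrough gene EFNA4-EFNA3, which shares exons with both neighbours, and 2 members, UNC50 (a Golgi protein) and UNC5CL, fit by name without being guidance receptors. The series compared fast cells, which are MDA-MB-231 cells captured for the trajectory along which they moved, with the parental MDA-MB-231 cells. Cultured cells gave 6 fast and 6 parental RNA-seq libraries, split evenly over 2 batches (3 per population and batch), and read counts per gene were deposited. The series speaks of technical replicates in 2 batches and of 2 biological replicates, which could be the populations or the batches. The labels do not say whether separate captures or cultures lie behind the libraries, so each p-value reflects only how libraries varied, and that variation may be technical. No drug, gene edit or time point separates the populations in the labels, and whether the fast population came from 1 capture or several is not given.

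Axon guidance cues are secreted or membrane-bound proteins that steer the growth cones of neurons by attracting or repelling them, and the same proteins act on the movement and adhesion of other cells, tumour cells included. Semaphorins signal through plexins, and most secreted class 3 semaphorins need a neuropilin as co-receptor. Ephrins on one cell bind Eph receptor tyrosine kinases on its neighbour, with signalling into both cells, Slits bind Robo receptors, and netrins bind DCC, its relative neogenin (NEO1) and the UNC5 receptors.

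Library totals ran from 53267145 to 75944907 counts. Levels are given as CPM (counts scaled to a common library total, here with TMM factors). Before those factors, 1 CPM was about 53.3 counts in the shallowest library. Within each population and batch every pair of libraries (12 pairs) had an index of dispersion of 3.41 to 8.78, above that of counting noise alone, so none was taken for a repeat of another. The mesenchymal marker VIM of the line averaged 6912 CPM in fast cells and 5050 CPM in parental cells, and CDH1, the cadherin of epithelia, had 8 counts over the fast and 3 over the parental libraries. Of 9 markers of the line, CDKN2A had 0 counts in every library. Of the 7 tested, 3 were higher, 2 lower and 2 not called, beside 63.4% of all genes tested that were called. Of 13 neuron markers (14 rows, since TUBB3 has a pair of rows), DCX, ELAVL4, NEFL, NEFM and STMN2 had 0 counts in every library. The neuron list summed to 334 to 354 CPM in fast libraries and 172 to 192 CPM in parental libraries, nearly all of it from the tubulin TUBB3, and 2 of its 6 tested rows were higher and 1 lower. Of 10 endothelial markers ERG had 0 counts and 3 of 6 tested were higher and 2 lower, and the list summed to 219 to 248 CPM in fast libraries and 113 to 129 CPM in parental libraries, mostly from the adhesion protein ESAM. Leukocyte markers summed to at most 1.61 CPM in fast libraries and 2.62 CPM in parental libraries with MS4A1 at 0, and of the 2 tested 1 was lower and 1 was not called. Fibroblast markers summed to 8.12 to 11.0 CPM in fast libraries and 13.6 to 15.4 CPM in parental libraries with DCN and LUM at 0, and the 1 tested, COL1A1, was lower. In bulk RNA, fewer cells with a transcript and less transcript per cell cannot be told apart.

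Guidance genes differed between fast and parental cells in both directions. Class 3 semaphorins SEMA3B, SEMA3D, SEMA3E and SEMA3A, most plexins and the netrin NTN4 were higher in fast cells. The neogenin receptor NEO1 and the semaphorin SEMA5A were almost or wholly without reads there, and SEMA7A, NRP2, EFNB1, SLIT2 and the Robo receptors ROBO1, ROBO2 and ROBO3 were lower. EPHA2, the member with the highest level per exon length, stood at nearly the same level in both populations. Of the 74 members, 63 passed the low-count filter, and 11 (DCC, EPHA3, EPHA8, EPHB1, EPHB6, SLIT3, UNC5D, NTN5, NTNG1, SEMA4A and SEMA5B) did not, with at most 18 counts in any library. By edgeR's quasi-likelihood test at an adjusted p under 0.05 over all 22668 genes tested, 17 of the 63 were higher and 30 lower, and 16 were not called. That is 74.6% of the members tested, beside 63.4% of all genes tested (31.9% higher and 31.5% lower). By at least 2-fold, 4 members were higher and 10 lower, beside 3.98% and 6.92% of all genes tested. Libraries of the populations did not overlap in 30 members (12 with fast above and 18 with fast below), beside 38.4% of all genes tested (18.8% and 19.6%), and 35 members were called with the same sign in each batch alone, beside 46% of all genes tested. The median log2 fold change was -0.23 over the members tested and 0.01 over all genes tested. Without UNC50, UNC5CL and EFNA4-EFNA3 the counts were 16 higher and 29 lower of 60.

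**Figure D1:**
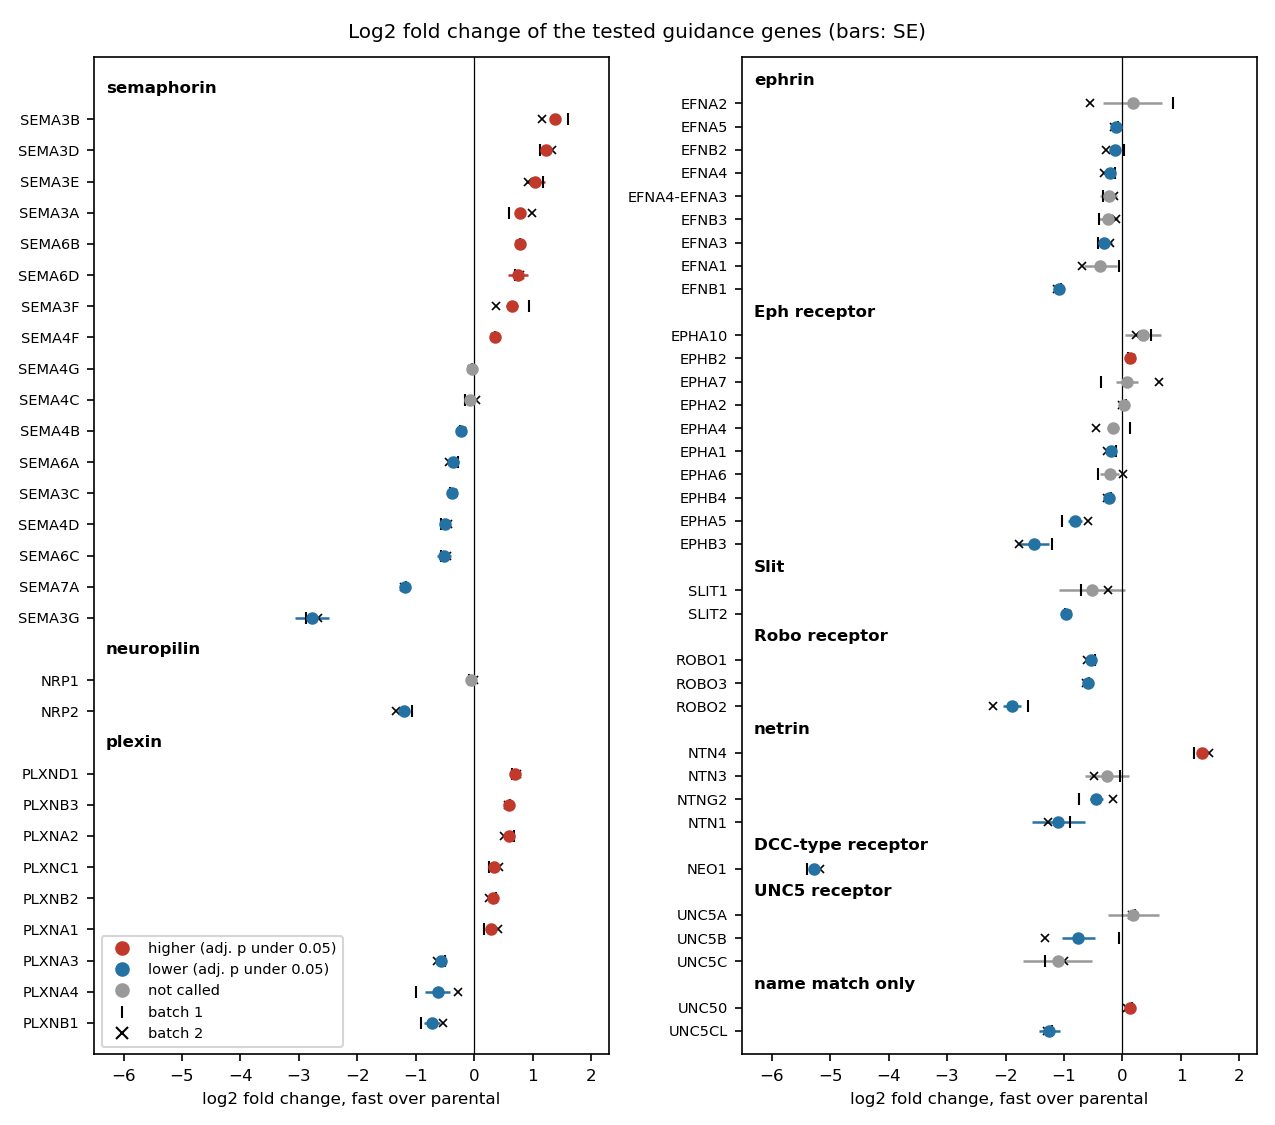
Log2 fold change (fast over parental, x axis) of the tested members by family, with the standard error as a bar and the value in batch 1 (tick) and batch 2 (cross); SEMA5A, with 0 fast counts, is not drawn. Plexins lie mostly to the right of 0, the 3 Robo receptors to the left, and NEO1 stands farthest left at -5.28.

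Split by role, 9 of 33 tested ligand rows, EFNA4-EFNA3 included, were higher and 16 lower. Receptor genes had 7 of 28 tested higher and 13 lower. The shares over all genes tested were 31.9% higher and 31.5% lower. In this paragraph levels of different genes are compared per kilobase of exon (CPM per kb), counting all exons annotated for a gene. Exons not used in these cells lower that value. Family sums and the word abundant elsewhere rest on plain CPM. Among the 49 members with a mean of at least 1 CPM, EPHA2 led at 104 CPM per kb in fast and 103 CPM per kb in parental cells. SEMA7A followed, at 22.8 CPM per kb in fast and 52.0 CPM per kb in parental cells. PLXNB2 stood at 33.6 and NRP1 at 22.0 CPM per kb in fast cells, against 27.1 and 22.9 CPM per kb in parental cells. In fast cells PLXNB2 thus ranked above SEMA7A, and in parental cells SEMA7A ranked above PLXNB2. NTN4 had 17.4 CPM per kb in fast cells, above PLXNA1 at 15.6, while in parental cells NTN4 had 6.82 and PLXNA1 12.9 CPM per kb.

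**Figure D2:**
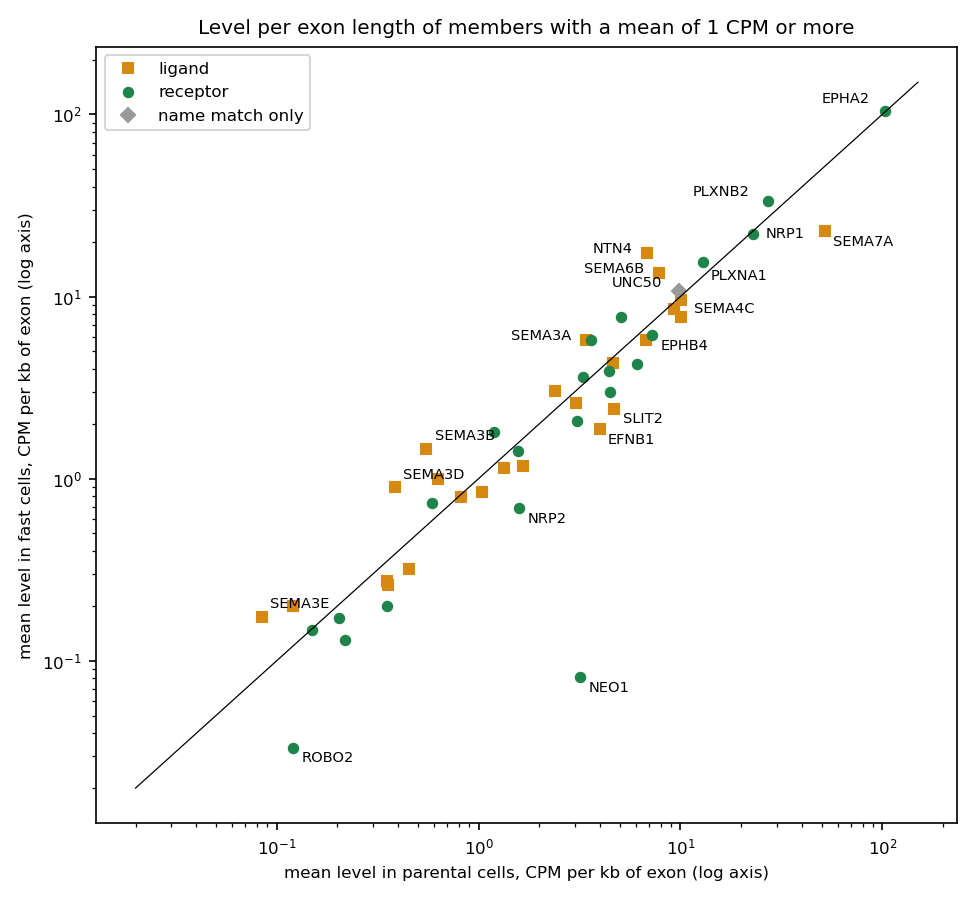
Mean level per kilobase of exon in fast cells (y, log axis) against parental cells (x, log axis) for the members with a mean of at least 1 CPM, except SEMA5A; squares are ligands, circles receptors, and the line marks equal levels. EPHA2 lies on the line at the top right, NTN4 above it, and SEMA7A, NRP2, ROBO2 and NEO1 below it, NEO1 farthest.

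SEMA5A and NEO1 had the largest falls of the members with a mean of at least 1 CPM, and NTN4 had the largest rise among members averaging 20 CPM or more. The 250 bases before their starts are printed here from RefSeq on GRCh38.p14, 5′ to 3′ on the strand of the gene, with each CG dinucleotide in capitals. SEMA5A's window is chr5:9546076-9546325 on the minus strand, NEO1's is chr15:73051652-73051901 on the plus strand, and NTN4's, for the first of its 2 listed starts, is chr12:95791156-95791405 on the minus strand.
SEMA5A: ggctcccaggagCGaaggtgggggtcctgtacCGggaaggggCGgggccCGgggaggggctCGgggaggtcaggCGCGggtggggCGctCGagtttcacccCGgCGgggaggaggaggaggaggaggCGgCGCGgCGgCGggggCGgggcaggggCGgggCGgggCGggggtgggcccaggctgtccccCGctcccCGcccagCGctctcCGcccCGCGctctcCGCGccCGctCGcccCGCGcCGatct
NEO1: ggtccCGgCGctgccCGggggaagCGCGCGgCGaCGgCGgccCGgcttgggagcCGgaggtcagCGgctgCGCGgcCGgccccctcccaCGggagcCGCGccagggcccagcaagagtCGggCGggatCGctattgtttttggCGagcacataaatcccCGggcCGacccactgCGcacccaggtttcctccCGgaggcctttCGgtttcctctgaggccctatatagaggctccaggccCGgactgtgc
NTN4: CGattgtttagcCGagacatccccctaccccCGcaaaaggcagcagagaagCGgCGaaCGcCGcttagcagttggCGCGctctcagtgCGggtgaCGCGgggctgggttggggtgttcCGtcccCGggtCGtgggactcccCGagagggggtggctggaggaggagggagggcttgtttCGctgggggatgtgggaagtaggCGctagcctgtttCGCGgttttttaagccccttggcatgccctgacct
These windows hold 33, 28 and 20 CG dinucleotides, against a median of 11 over the 35116 promoters in the table. At least as many CG were found in 8.15% of all promoters for SEMA5A, in 15.9% for NEO1 and in 32.4% for NTN4. None of these windows holds TATAAA on either strand, which 10.7% of all promoters do. Of the 73 member symbols, 62 had a promoter in the table, and no measurement of these data bears on methylation or on which start was used.

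Semaphorins, the largest ligand family, had 18 of 20 genes tested. Of these 8 were higher, 8 lower and 2 not called, beside 31.9% higher and 31.5% lower of all genes tested. The summed level of the semaphorins averaged 416 CPM in fast cells and 499.7 CPM in parental cells. Without SEMA7A the sum was 329.7 CPM in fast cells and 302 CPM in parental cells, the opposite order. Class 3, whose members are secreted, went mostly upward. SEMA3B (ENSG00000012171), a class 3 ligand that acts through neuropilins, had 6.24, 8.48 and 10.1 CPM as lowest, median and highest of the 6 fast libraries, against 2.93, 3.22 and 3.46 CPM in the 6 parental libraries. Every fast library was above every parental one, and within the fast libraries all 3 of batch 1 were above all 3 of batch 2. The log2 fold change was 1.38 ± 0.09 (SE, n = 6 libraries each, edgeR adjusted p = 3.61e-16). SEMA3D, another neuropilin-dependent class 3 ligand, had 5.80, 7.40 and 8.25 CPM in fast libraries and 2.32, 3.14 and 3.72 CPM in parental libraries, again without overlap (1.23 ± 0.08 SE, edgeR adjusted p = 2.42e-15). SEMA3E, which binds PLXND1 without a neuropilin, had 1.26, 1.54 and 1.62 CPM in fast libraries and 0.525, 0.721 and 0.911 CPM in parental libraries, also without overlap (1.04 ± 0.16 SE, edgeR adjusted p = 5.83e-07).

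SEMA3A, the collapse-inducing ligand of NRP1 and A-type plexins, was more abundant, with 50.1, 53.8 and 57.8 CPM in fast libraries and 25.8, 32.1 and 37.3 CPM in parental libraries. The libraries did not overlap, and the log2 fold change was 0.78 ± 0.07 SE (edgeR adjusted p = 5.47e-08). SEMA3F, a ligand of NRP2, had 3.97, 4.73 and 5.92 CPM in fast libraries and 2.53, 3.08 and 3.50 CPM in parental libraries (0.65 ± 0.10 SE, edgeR adjusted p = 9.06e-07). Against these 5 that rose, 2 class 3 members fell. SEMA3C, which acts through NRP1 and NRP2, had 43.9, 49.1 and 51.9 CPM in fast libraries and 56.1, 62.4 and 74.05 CPM in parental libraries (-0.38 ± 0.04 SE, edgeR adjusted p = 1.89e-11). SEMA3G, at a low level, averaged 0.125 CPM in fast cells and 0.881 CPM in parental cells (-2.78 ± 0.29 SE, edgeR adjusted p = 2.66e-10). In SEMA3C and SEMA3G all fast libraries were below all parental ones.

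**Figure D3:**
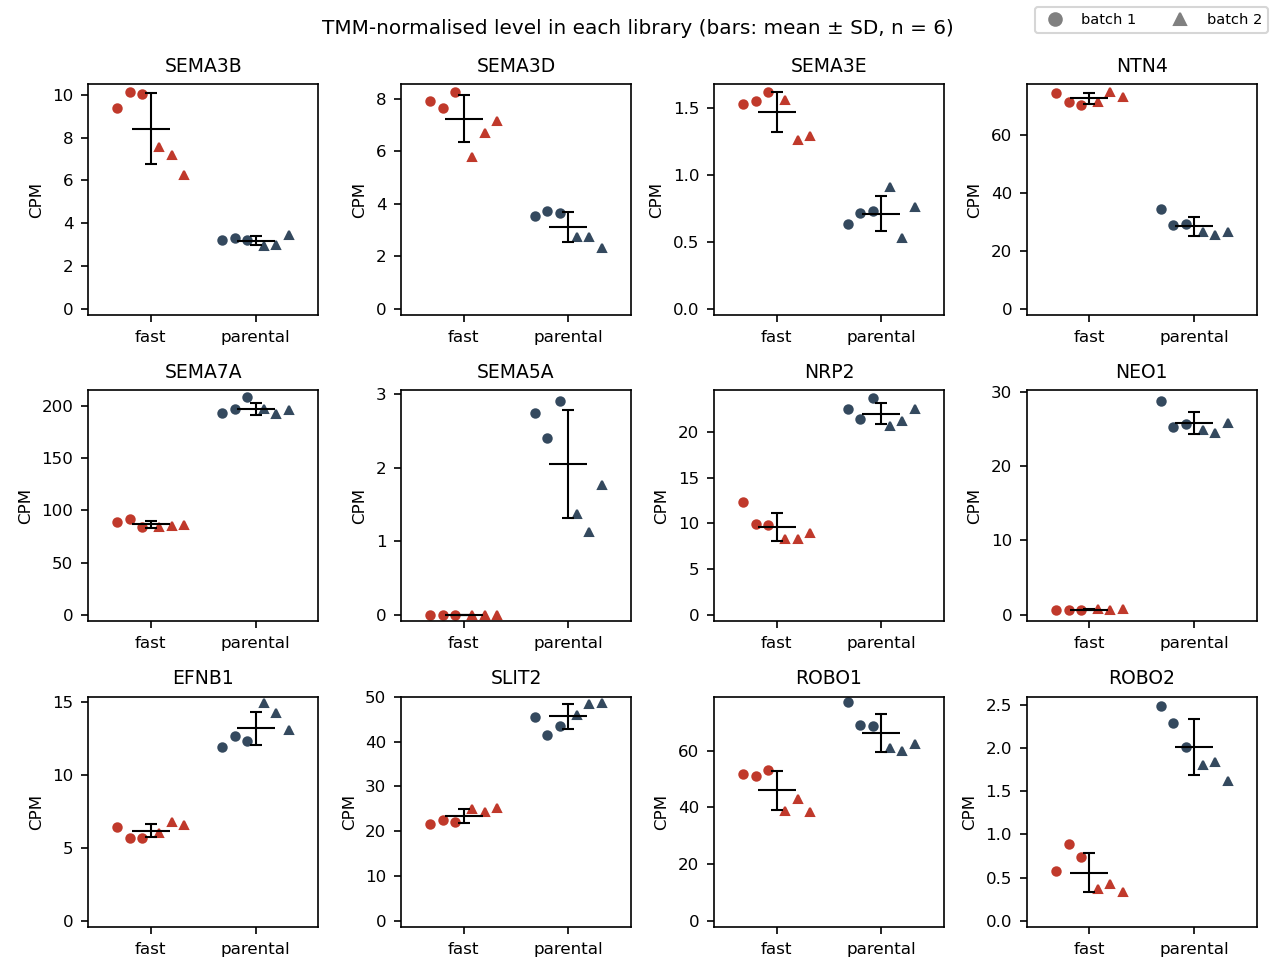
TMM-normalised level (CPM, y axis) of 12 members in each fast (left) and parental (right) library, circles for batch 1 and triangles for batch 2, with mean ± SD (n = 6 libraries). In none of the 12 do the populations overlap: SEMA3B, SEMA3D, SEMA3E and NTN4 are higher in fast libraries, and the other 8 lower, with SEMA5A at 0.

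Among membrane-bound semaphorins the largest changes were falls. SEMA5A (ENSG00000112902), a transmembrane semaphorin with thrombospondin repeats that binds B- and A-type plexins, had 0 counts in each of the 6 fast libraries and 786 counts over the 6 parental libraries. In parental libraries its level was 1.12, 2.08 and 2.90 CPM as lowest, median and highest, with the 3 libraries of batch 1 all above the 3 of batch 2. With 3 counts over the 6 fast libraries as the upper limit of 0, the level was at least 267-fold lower in fast cells. That limit covers counting error only and takes each count as independent. In DCC the parental libraries with reads had 4, 4 and 2 counts, and in EPHB6 2, 2 and 4. With such even counts, counts may not be independent and the bound may be too high. SEMA5A passed the low-count filter through its parental libraries alone, so its test (edgeR adjusted p = 1.63e-18) adds no support to these counts. Of all genes tested, 99 (0.437%) had 0 counts over the fast libraries. SEMA7A (ENSG00000138623), a glycolipid-anchored semaphorin that binds integrins and PLXNC1, had 83.7, 85.4 and 92.0 CPM in fast libraries and 193, 197 and 209 CPM in parental libraries. The populations stood far apart relative to their spread, and the log2 fold change was -1.19 ± 0.03 SE (edgeR adjusted p = 6.12e-28).

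SEMA6B, a transmembrane ligand of A-type plexins, was the abundant membrane-bound member that rose, with 58.7, 59.5 and 60.8 CPM in fast libraries and 33.2, 34.5 and 37.4 CPM in parental libraries (0.78 ± 0.03 SE, edgeR adjusted p = 1.39e-20). SEMA4F averaged 19.0 ± 2.0 CPM in fast cells and 14.8 ± 1.5 CPM in parental cells (SD, n = 6 libraries each, 0.35 ± 0.05 SE, edgeR adjusted p = 4.44e-08), and SEMA6D averaged 1.71 CPM in fast cells and 1.03 CPM in parental cells (0.74 ± 0.17 SE). SEMA4D, the ligand of PLXNB1 known from T cells, had 15.4, 16.6 and 17.6 CPM in fast libraries and 21.7, 23.9 and 24.9 CPM in parental libraries, without overlap (-0.50 ± 0.05 SE, edgeR adjusted p = 1.84e-11). SEMA4B, whose libraries overlapped, had 35.6, 39.9 and 45.7 CPM in fast libraries and 42.1, 47.8 and 51.6 CPM in parental libraries (-0.23 ± 0.03 SE, edgeR adjusted p = 4.59e-07). SEMA6A and SEMA6C were lower as well, by log2 fold changes of -0.36 and -0.52. SEMA4C, the ligand of PLXNB2, had 53.1, 58.8 and 64.5 CPM in fast libraries and 51.0, 60.9 and 73.0 CPM in parental libraries and was not called (-0.07 ± 0.04 SE, edgeR adjusted p = 0.126), although it was called lower in batch 1 alone (-0.18, edgeR adjusted p = 0.000411) and without parental batch 2 replicate 2 (edgeR adjusted p = 0.0401). SEMA4G, whose exons overlap MRPL43 and AL133215.1 on the other strand over 27.4% of their length together, was not called either.

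The neuropilins, co-receptors for class 3 semaphorins and for VEGF family members, did not move together. NRP2 (ENSG00000118257), which binds SEMA3F and VEGF-C, had 8.23, 9.36 and 12.3 CPM in fast libraries and 20.7, 21.9 and 23.7 CPM in parental libraries. No fast library reached the lowest parental one, and the log2 fold change was -1.21 ± 0.06 SE (edgeR adjusted p = 1.96e-18). NRP1, the SEMA3A co-receptor, had 225, 254 and 277 CPM in fast libraries and 233, 259 and 306 CPM in parental libraries, which overlapped. Its log2 fold change of -0.05 ± 0.03 SE was not called (edgeR adjusted p = 0.101), but NRP1 was called lower in batch 1 alone (-0.12, edgeR adjusted p = 0.00115), with genes under a mean of 1 CPM left out (-0.07, edgeR adjusted p = 0.0155), with upper-quartile scaling (-0.07, edgeR adjusted p = 0.0239) and without fast batch 2 replicate 1 (-0.07, edgeR adjusted p = 0.0324).

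All 9 plexins, the signalling receptors of semaphorins, were called, 6 higher and 3 lower. Beside this, 63.4% of all genes tested were called (31.9% higher and 31.5% lower). The summed level of the plexins averaged 622 CPM in fast cells and 496 CPM in parental cells. The plexin sums did not overlap, at 599 to 651 CPM in fast libraries and 470.04 to 524 CPM in parental libraries. PLXND1, the SEMA3E receptor, had 49.0, 56.9 and 62.3 CPM in fast libraries and 30.2, 35.4 and 39.2 CPM in parental libraries (0.69 ± 0.03 SE, edgeR adjusted p = 1.03e-18). PLXNA2, which pairs with neuropilins and binds class 6 semaphorins, had 100.1, 107 and 109.9 CPM in fast libraries and 67.6, 69.2 and 74.9 CPM in parental libraries (0.59 ± 0.03 SE, edgeR adjusted p = 3.85e-18). PLXNB2, a receptor of class 4 semaphorins and of angiogenin, had 237, 244 and 249.4 CPM in fast libraries and 181, 196 and 210.2 CPM in parental libraries (0.31 ± 0.03 SE, edgeR adjusted p = 1.95e-12). In these 3 every fast library was above every parental one. PLXNA1 had 152, 170.5 and 189 CPM in fast libraries and 117, 139.97 and 166 CPM in parental libraries, with overlap (0.29 ± 0.04 SE, edgeR adjusted p = 6.18e-08).

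The less abundant PLXNB3, whose exons overlap SRPK3 on the same strand over 20.4% of their length, averaged 12.6 ± 0.5 CPM in fast cells and 8.35 ± 1.2 CPM in parental cells (SD, n = 6 libraries each, 0.59 ± 0.07 SE, edgeR adjusted p = 5.95e-09). PLXNC1, the SEMA7A receptor, averaged 7.28 ± 0.40 CPM in fast cells and 5.80 ± 0.88 CPM in parental cells (0.33 ± 0.07 SE, edgeR adjusted p = 0.000172). The 3 plexins that fell were PLXNA3, PLXNB1 and PLXNA4. PLXNA3 had 19.5, 24.5 and 27.3 CPM in fast libraries and 32.0, 36.0 and 38.9 CPM in parental libraries (-0.57 ± 0.05 SE, edgeR adjusted p = 6.99e-11). PLXNB1, the SEMA4D receptor, averaged 1.26 CPM in fast cells and 2.12 CPM in parental cells (-0.73 ± 0.14 SE), and PLXNA4 0.633 CPM in fast cells and 0.995 CPM in parental cells (-0.63 ± 0.21 SE). In batch 2 PLXNA4 was not called (-0.27, edgeR adjusted p = 0.421). Set side by side, the ligand SEMA7A was lower while its receptor PLXNC1 was higher, and SEMA4D and its receptor PLXNB1 were both lower. SEMA3E and its receptor PLXND1 were both higher. These pairs are examples. Libraries of PLXNC1 overlapped, and PLXNC1 and PLXNB1 lost their calls when set against neighbouring genes, as described below.

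Ephrins, the membrane-bound ligands of Eph receptors, had all 9 rows tested, with 0 higher, 5 lower and 4 not called by edgeR. Also at an unadjusted p under 0.05, by DESeq2 and by limma-voom, 0 were higher. In all genes tested, 31.9% were higher and 31.5% lower. The readthrough gene EFNA4-EFNA3 is among the 9 rows, was not called, and overlaps EFNA3 and EFNA4 over all of its exons. The sum of the 9 rows averaged 81.2 CPM in fast cells and 95.2 CPM in parental cells. EFNB1 (ENSG00000090776), a transmembrane ephrin on the X chromosome, had 5.65, 6.22 and 6.74 CPM in fast libraries and 11.9, 12.9 and 14.9 CPM in parental libraries. It was the only ephrin whose libraries did not overlap, with a log2 fold change of -1.09 ± 0.06 SE (edgeR adjusted p = 2.35e-17). EFNB2, a transmembrane ligand of EPHB4 whose exons overlap a gene on the other strand over 26.2% of their length, had 35.6, 42.7 and 52.4 CPM in fast libraries and 43.3, 46.9 and 49.5 CPM in parental libraries. Its small fall (-0.13 ± 0.04 SE, edgeR adjusted p = 0.00878) was not called when the 3 libraries per population and batch were summed (edgeR adjusted p = 0.123). EFNA5, a glycolipid-anchored ephrin, had 22.2, 24.8 and 26.5 CPM in fast libraries and 23.2, 26.5 and 29.8 CPM in parental libraries (-0.11 ± 0.04 SE, edgeR adjusted p = 0.0207). EFNA3 and EFNA4, whose exons overlap the readthrough gene over 44.7% and 15% of their length, were lower by log2 fold changes of -0.31 and -0.22 (edgeR adjusted p = 0.0346 and 0.0462). Both calls, and that of EFNA5, depended on which library was left out. That of EFNA3 was kept only without fast batch 2 replicate 1, parental batch 1 replicate 1 or parental batch 2 replicate 2, and was otherwise lost when 1 library was left out (edgeR adjusted p up to 0.130). That of EFNA4 was kept only without fast batch 1 replicate 2, fast batch 2 replicate 3 or parental batch 1 replicate 1 (otherwise up to 0.148). The call of EFNA5 was lost without replicate 3 of fast batch 1, replicate 2 of either population in batch 2, or replicate 1 of parental batch 1 (edgeR adjusted p = 0.0544 to 0.109).

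Eph receptors, the receptor tyrosine kinases for ephrins, showed small differences at high levels. Of 14 genes 10 were tested, with 1 higher, 4 lower and 5 not called, beside 63.4% of all genes tested that were called. The Eph receptors summed to 552 CPM in fast cells and 555 CPM in parental cells. EPHA2 (ENSG00000142627), an Eph receptor known from epithelial and tumour cells, had 423, 435 and 445 CPM in fast libraries and 419.9, 426 and 436 CPM in parental libraries. The populations overlapped and the log2 fold change was 0.02 ± 0.02 SE (edgeR adjusted p = 0.405). EPHB2 had 41.6, 44.8 and 48.3 CPM in fast libraries and 36.5, 42.2 and 42.7 CPM in parental libraries (0.12 ± 0.04 SE, edgeR adjusted p = 0.00365). EPHB4, the EFNB2 receptor, had 36.5, 39.3 and 43.1 CPM in fast libraries and 43.3, 46.1 and 51.3 CPM in parental libraries, without overlap (-0.24 ± 0.03 SE, edgeR adjusted p = 2.16e-07). At low levels, EPHA5 averaged 1.97 CPM in fast cells and 3.47 CPM in parental cells (-0.81 ± 0.11 SE), and EPHB3 averaged 0.329 CPM in fast cells and 0.948 CPM in parental cells (-1.52 ± 0.26 SE), both without overlap. EPHA1 was lower by a log2 fold change of -0.19.

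Of the Slit family, the secreted ligands of Robo receptors, SLIT2 carried nearly all reads. SLIT2 (ENSG00000145147) had 21.7, 23.5 and 25.3 CPM in fast libraries and 41.5, 45.9 and 48.8 CPM in parental libraries. All fast libraries were below all parental ones, and the log2 fold change was -0.96 ± 0.04 SE (edgeR adjusted p = 5.07e-22), with -0.98 in batch 1 and -0.94 in batch 2. SLIT1 was not called and SLIT3 had at most 6 counts in a library. The 3 Robo receptors fell too, each without overlap. Every fast library was below every parental one in 19.6% of all genes tested. The 3 Robo receptors summed to 67.5 CPM in fast cells and 99.9 CPM in parental cells. ROBO1, the widely expressed Slit receptor, had 38.3, 47.2 and 53.1 CPM in fast libraries and 59.8, 65.5 and 77.2 CPM in parental libraries (-0.53 ± 0.04 SE, edgeR adjusted p = 1.24e-14). ROBO3, known for its part in axons that cross the midline, had 19.0, 21.0 and 22.6 CPM in fast libraries and 29.2, 31.2 and 34.4 CPM in parental libraries (-0.60 ± 0.05 SE, edgeR adjusted p = 2.73e-13). ROBO2 (ENSG00000185008) had 0.327, 0.506 and 0.894 CPM in fast libraries and 1.62, 1.93 and 2.49 CPM in parental libraries (-1.89 ± 0.16 SE, edgeR adjusted p = 1.74e-12). The endothelial relative ROBO4, which the name rule does not take, went the other way, at 95.9 CPM in fast cells and 55.2 CPM in parental cells (0.80 ± 0.03 SE, edgeR adjusted p = 2.36e-21); its exons overlap genes on the other strand over 16.9% of their length.

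Netrins are secreted or anchored laminin-like proteins, and nearly all their reads came from NTN4. NTN4 (ENSG00000074527), a netrin of basement membranes that binds laminin, had 70.2, 72.0 and 74.8 CPM in fast libraries and 25.3, 27.6 and 34.2 CPM in parental libraries. The lowest fast library stood above the highest parental one, and the log2 fold change was 1.36 ± 0.05 SE (edgeR adjusted p = 2.18e-19). NTN1, the founding member of the family, averaged only 0.0746 CPM in fast cells and 0.160 CPM in parental cells. No fast library reached the filter's minimum count of 10, so NTN1 was tested through its parental libraries alone. Its call (edgeR adjusted p = 0.0371) was kept only without fast batch 1 replicate 3, fast batch 2 replicate 1, or replicate 1 or 2 of parental batch 1 or replicate 3 of parental batch 2, and was lost without any other library (edgeR adjusted p = 0.0538 to 0.113). NTNG2, an anchored netrin, averaged 2.04 CPM in fast cells and 2.80 CPM in parental cells (-0.45 ± 0.12 SE, edgeR adjusted p = 0.00138). Its log2 fold change was -0.74 in batch 1 and -0.16 in batch 2, where it was not called (edgeR adjusted p = 0.378), and the difference did not pass its test (edgeR adjusted p = 0.117).

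On the receptor side, NEO1 (ENSG00000067141), which encodes neogenin, a receptor of netrins and of repulsive guidance molecules, had 0.588, 0.649 and 0.773 CPM in fast libraries and 24.5, 25.4 and 28.8 CPM in parental libraries. In counts, that is 262 over the 6 fast libraries and 10006 over the 6 parental libraries, a level 38.9-fold lower in fast cells. The log2 fold change was -5.28 ± 0.08 SE (edgeR adjusted p = 8.90e-34), with -5.39 in batch 1 and -5.18 in batch 2. A call with at least a 16-fold fall was made in 1.25% of all genes tested. Its relative DCC had 0 counts in fast and 10 in parental libraries, too few to test. Among the UNC5 receptors, UNC5B averaged 0.272 CPM in fast cells and 0.481 CPM in parental cells and was called lower (-0.76 ± 0.29 SE, edgeR adjusted p = 0.0208), but not when replicate 2 or 3 of the fast batch 2 libraries or replicate 2 of the parental ones was left out (edgeR adjusted p = 0.0592 to 0.0977). Its log2 fold change was -0.07 in batch 1 (edgeR adjusted p = 0.902) and -1.33 in batch 2 (edgeR adjusted p = 0.00192), a difference that did not pass its test (edgeR adjusted p = 0.199). UNC5A and UNC5C were not called, and UNC5C was without fast batch 2 replicate 1 (-2.01, edgeR adjusted p = 0.0123). Of the pair that fit by name only, UNC50 averaged 23.8 CPM in fast cells and 21.9 CPM in parental cells (0.12 ± 0.04 SE), and UNC5CL, whose exons overlap OARD1 on the same strand over 23.8% of their length, 0.536 CPM in fast cells and 1.28 CPM in parental cells (-1.25 ± 0.18 SE).

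In 6 of the 63 members (3 of them with the lower log2 fold change in batch 2), beside 5.4% of all genes tested (3.65% with the lower one in batch 2), the difference between fast and parental cells was itself of another size in batch 2 than in batch 1 by the test of that difference. The log2 fold change of SEMA3A was 0.58 in batch 1 and 0.98 in batch 2 (difference 0.40, edgeR adjusted p = 0.000118). PLXNA1 had 0.17 in batch 1 and 0.41 in batch 2 (difference 0.24, edgeR adjusted p = 0.000651), and NTN4 1.23 in batch 1 and 1.48 in batch 2 (difference 0.25, edgeR adjusted p = 0.0209). SEMA3F had 0.93 in batch 1 and 0.37 in batch 2 (difference -0.57, edgeR adjusted p = 0.0441). In these 4 the direction was the same in both batches. EFNB2 had 0.02 in batch 1 and -0.28 in batch 2 (difference -0.30, edgeR adjusted p = 0.00158). EPHA4, which had 8.66, 10.2 and 14.5 CPM in fast libraries and 10.9, 11.7 and 13.0 CPM in parental libraries and was not called over both batches, had 0.13 in batch 1 and -0.45 in batch 2 (difference -0.58, edgeR adjusted p = 0.00159). For EFNB2 and EPHA4 the fast libraries thus stood below the parental ones in batch 2. In batch 1 neither was called (edgeR adjusted p = 0.765 for EFNB2 and 0.205 for EPHA4). Without fast batch 1 replicate 2, EPHA4 was called lower over both batches (-0.24, edgeR adjusted p = 0.00429). The difference for NTN4 was not called when fast batch 1 replicate 2 or 3, or the parental replicate 1 of batch 1 or 2 of batch 2, was left out (edgeR adjusted p = 0.0526 to 0.108), and that for SEMA3F was kept only by DESeq2 or without parental batch 1 replicate 3 or parental batch 2 replicate 1 (otherwise adjusted p = 0.0511 to 0.156). Of the 63 members tested, 56 had the same sign in both batches, and the share over all genes tested was not counted.

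Genes along a chromosome stretch can differ together, so each member's log2 fold change was set beside the median of its neighbours. These were the 40 nearest tested genes with a mean of at least 1 CPM, 20 on each side. Near a chromosome end fewer were used, but at least 20 in all. The median was subtracted as a fixed value, so each p-value leaves out how widely the neighbours themselves differed. On the X chromosome that median was -0.71 at EFNB1, -0.59 at PLXNA3 and -0.65 at PLXNB3. EFNB1 fell beyond it (-0.38 after subtraction, edgeR adjusted p = 2.10e-06), PLXNA3 lay on it (0.02, edgeR adjusted p = 0.811) and PLXNB3 lay above it by 1.25. On chromosome 3 the medians were -0.47 at SEMA3B, -0.43 at SEMA3F, -0.34 at SEMA3G and -0.44 at PLXNB1, against which SEMA3B and SEMA3F were higher by 1.85 and 1.08 and PLXNB1 was no longer called (-0.29, edgeR adjusted p = 0.0743). On chromosome 7 SEMA3A, SEMA3C, SEMA3D and SEMA3E had medians of 0.23 to 0.24, with SEMA3A, SEMA3D and SEMA3E above and SEMA3C below them. NEO1, at -0.01, and NTN4, at 0.12, stood among neighbours with little difference. For EPHA1, PLXNC1 and SEMA6C the subtraction also ended the call, and it turned the sign of EFNA3, EFNA4, EPHB2 and SEMA4B, of which SEMA4B was then called higher by 0.12 (edgeR adjusted p = 0.00336). After subtraction 17 of the 63 members were called higher and 28 lower, beside 5878 higher and 6310 lower of 21540 genes. Among these members were 6 that were not called before. EPHA2, with neighbours at 0.16, then had -0.13 (edgeR adjusted p = 9.63e-06), with its sign turned. NRP1 (-0.12), SEMA4G (-0.39), SEMA4C (-0.09) and EFNB3 (-0.43) were then also called below the median of their neighbours. The edgeR adjusted p of these and of EPHA10 (0.75), called above its median, was 7.11e-05 to 0.0419. What part copy number has in these values was not tested.

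**Figure D4:**
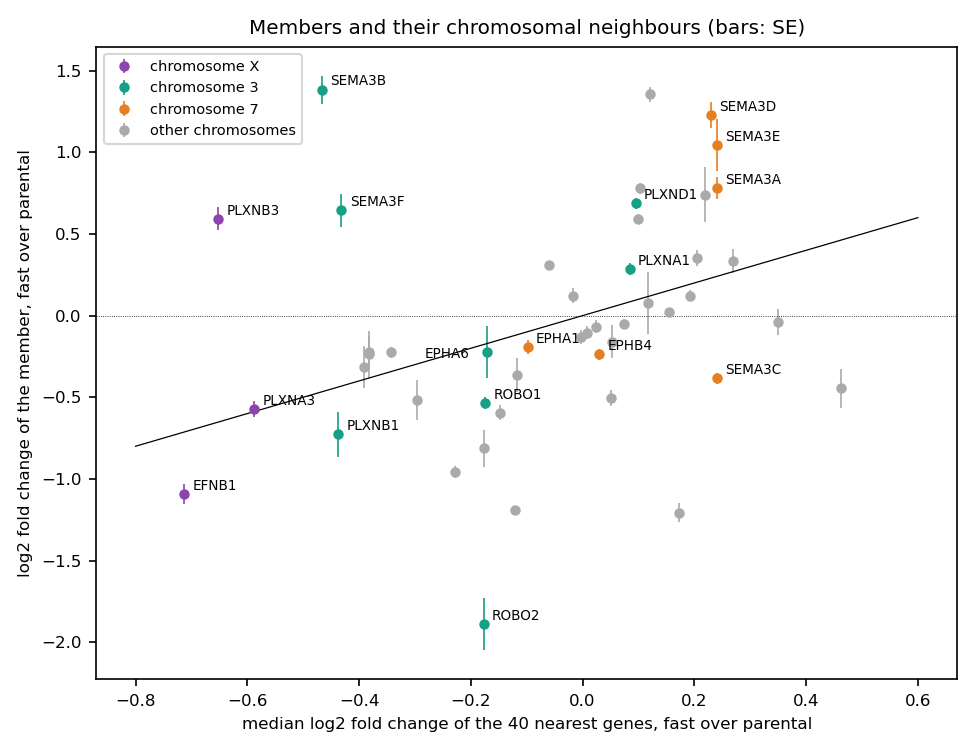
Log2 fold change of each tested member with a mean of at least 1 CPM (y axis, bars are SE) against the median of its neighbours (x axis). Neighbours are up to 40 nearest tested genes with a mean of at least 1 CPM. NEO1 and SEMA5A are off the scale, and the line marks equal values. The X-linked PLXNA3 lies at the left on the line, EFNB1 lies at the left below it, and PLXNB3, SEMA3B and SEMA3F lie above theirs.

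The partners of these ligands and receptors inside and at the surface of the cell were followed in 4 lists. Of 34 tested semaphorin and plexin partners, 18 were higher, 10 lower and 6 not called, and of 29 tested ephrin and Eph partners, 15 were higher, 8 lower and 6 not called. Of 23 tested Slit and Robo partners, 12 were higher, 10 lower and 1 not called, and of 23 tested netrin and repulsive guidance molecule partners, 11 were higher, 12 lower and 0 not called. Over all genes tested, 63.4% were called, 31.9% higher and 31.5% lower. The list medians of the log2 fold change were 0.16, 0.17, 0.06 and -0.08 in that order, beside 0.01 over all genes tested. In the first list L1CAM, a neuropilin-binding adhesion molecule, averaged 86.0 ± 10.01 CPM in fast cells and 37.5 ± 7.4 CPM in parental cells (SD, n = 6 libraries each, 1.21 ± 0.04 SE, edgeR adjusted p = 3.24e-24). LIMK1, the kinase of the actin-severing protein cofilin, averaged 69.3 CPM in fast cells and 32.9 CPM in parental cells (1.08 ± 0.03 SE), and RHOD, which binds plexins, 2.75 CPM in fast cells and 0.933 CPM in parental cells (1.54 ± 0.13 SE). DPYSL3, a member of the collapsin response mediator proteins, had the opposite sign, with 0.162 CPM in fast cells and 2.90 CPM in parental cells (-4.09 ± 0.20 SE).

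Among ephrin and Eph partners the Rac activator TIAM1 averaged 41.2 CPM in fast cells and 17.6 CPM in parental cells (1.23 ± 0.04 SE, edgeR adjusted p = 8.07e-23), and the exchange factor ARHGEF16, which interacts with EPHA2, 4.19 CPM in fast cells and 1.32 CPM in parental cells (1.67 ± 0.13 SE). ARHGEF5, a guanine nucleotide exchange factor, averaged 0.655 CPM in fast cells and 1.75 CPM in parental cells (-1.43 ± 0.17 SE). PICK1, a PDZ protein that binds ephrins and Eph receptors, had 2 counts over the fast libraries and 1141 over the parental libraries. The normalised ratio of parental over fast was 581 (95% exact interval 161 to 4806). That interval covers counting error only and takes each count as independent, so it may be too narrow. Among Slit and Robo partners, EVL, an actin-binding Ena/VASP protein, averaged 2.47 CPM in fast cells and 18.5 CPM in parental cells (-2.91 ± 0.07 SE, edgeR adjusted p = 6.13e-28), while its relative VASP averaged 214 CPM in fast cells and 141 CPM in parental cells (0.60 ± 0.03 SE). The kinase ABL2 averaged 313 CPM in fast cells and 206 CPM in parental cells (0.59 ± 0.06 SE).

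Among netrin and repulsive guidance molecule partners the 4 with the largest changes all fell. DAPK1, a death-associated kinase that binds UNC5 receptors, had 0 counts over the fast and 907 over the parental libraries. By the limit of 3 counts used for SEMA5A, its level was at least 308-fold lower in fast cells. That bound, too, takes counts as independent and may be too high. DSCAM, a netrin-binding adhesion molecule, averaged 0.519 CPM in fast cells and 4.40 CPM in parental cells (-3.08 ± 0.14 SE). TRIM9, a ubiquitin ligase that binds DCC, averaged 0.558 CPM in fast cells and 2.39 CPM in parental cells (-2.09 ± 0.18 SE), and MAGED1, a partner of UNC5A, 10.1 CPM in fast cells and 33.1 CPM in parental cells (-1.74 ± 0.06 SE). These genes were named for their size of change, so that their direction is a description and not a statement about the lists.

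**Figure D5:**
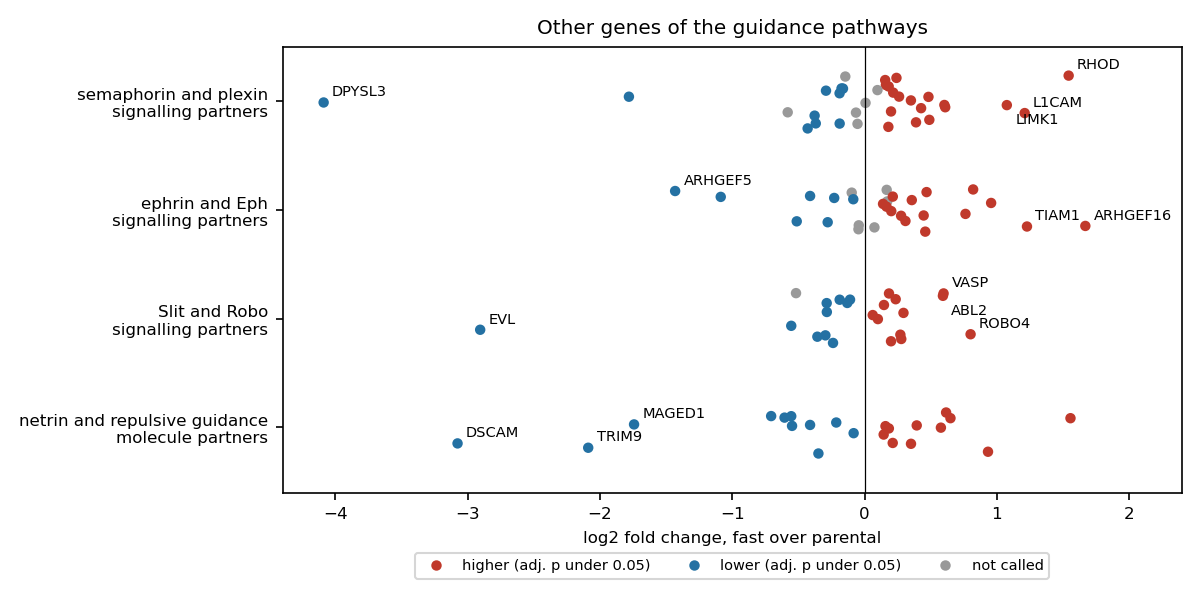
Log2 fold change (fast over parental, x axis) of the tested genes of 4 lists of guidance partners, spread vertically within each list for sight; colours mark the call, and PICK1 and DAPK1, with 2 and 0 fast counts, are not drawn. Each list holds genes on both sides of 0, with DPYSL3, DSCAM and EVL farthest left.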

How the data were processed

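The authors deposited unnormalized read counts for each gene. The submitters' processing notes name Trimmomatic 0.32, STAR 2.3.0e and featureCounts 1.4.4, and the builds hg19 and GRCh37. How counting treated strand and multi-mapping reads is not given in the sources at hand, so overlapping genes and near-identical copies are uncertain. Population, batch and replicate number were taken from the sample titles, and in batch 1 the count columns number 1 fast and 2 parental libraries otherwise than the titles do.

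All genes were fitted with edgeR 4.0.16 in R 4.3.3: TMM factors, default low-count filter (minimum count 10, minimum total 15), robust quasi-likelihood test, batch as an additive term, and Benjamini-Hochberg adjustment over 22668 genes with a threshold of 0.05. Within-batch values and their difference came from a fit of 4 means, 1 for each combination of population and batch. Log2 fold changes are fast over parental. The steps were tested on simulated counts. Alternatives used limma 3.58.1, DESeq2 1.42.0, other scalings, filters, batch terms and left-out libraries.

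Exon lengths, overlaps and gene order came from GENCODE 29 (GRCh38), matched by gene ID. It held all 74 members and 95.1% of genes tested. Promoters came from RefSeq (GRCh38.p14).

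The members, the lists of partners and markers, and the tests were chosen with earlier results of these data known. Members were described in full if called in both batches with a change of at least 2-fold at a mean of 1 CPM or more, if their mean was at least 20 CPM, or if their batches differed at a mean of 1 CPM or more. From each partner list up to 4 called genes with the largest change at a mean of 1 CPM or more were named. VIM, CDH1, TUBB3, ESAM, COL1A1 and the other members were named after their values were seen.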

Additional observations from a re-analysis of the deposited data

Results flagged for a closer look

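In 5 members a single library stood away from the other 5 of their population, by more than 0.625 of the group's whole range. Such a gap was found in 5 of 125 groups of 6 libraries, and chance alone gives about 1 in 20. NEO1 had 28.75 CPM in parental batch 1 replicate 1, with the next parental library at 25.78 CPM. EPHB2 had 36.54 CPM in parental batch 1 replicate 2, below the next at 41.63 CPM. SEMA6B had 37.38 CPM and SEMA7A 208.6 CPM in parental batch 1 replicate 3, above the next at 34.72 and 197.4 CPM. UNC5C had 0.2396 CPM in fast batch 2 replicate 1, above the next at 0.07713 CPM.

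The test of the difference between batches picked out 6 members, as batch 2 minus batch 1 of the log2 fold change: EPHA4 at -0.5785, EFNB2 at -0.3014, NTN4 at 0.2538, PLXNA1 at 0.2436, SEMA3A at 0.3971 and SEMA3F at -0.5675. Over all genes the split of such differences depended on the scaling, with 396 higher and 827 lower in batch 2 by TMM, 575 higher and 522 lower by RLE and 612 higher and 527 lower by upper-quartile factors.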

How the results depend on the processing

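Under the 24 other settings 15 to 18 members were higher and 24 to 31 lower, and 49 to 59 partner genes were higher and 36 to 44 lower. Of all genes, 5878 to 7302 were higher and 6101 to 7546 lower under these settings, with 16189 to 38535 genes tested. Under the 19 settings with a test of the difference between batches, 4 to 7 members differed. Of the 47 members called, 41 had a value under every setting and 27 of them kept their call under each, as did EPHB3, SEMA3G and UNC5CL under the settings that gave them a value; 42 kept it without each library (not EFNA3, EFNA4, EFNA5, NTN1 and UNC5B). With the replicate block 17 members were higher and 28 lower (EFNA3 and NTN1 were lost), 5 differed between batches, and 7024 of all genes were higher and 6942 lower. The same-numbered libraries correlated by only -0.106 to 0.0933 over 6 pairs, and several correlated better with another number, so they were not taken as paired. With sums of 3 libraries EFNA3, EFNA4, EFNA5, EFNB2, NTN1, UNC5B and UNC50 lost their call, and with no batch term EFNA3, EFNA4, EFNA5, EFNB2 and EPHA1 did. In batch 1 alone EPHA1, EPHB2, UNC5B, EFNA3, EFNA4, EFNA5, EFNB2, PLXNC1 and SEMA6A were not called, and in batch 2 alone EFNA3, UNC50, NTNG2 and PLXNA4. With no low-count filter the fit lost EFNA3, EFNA4 and NTN1 and called EPHA4 lower, and limma-voom lost EFNA3 and called UNC5C lower. Signs turned as follows, and the cause was not tested. Centred on neighbouring genes, the log2 fold change was -0.1323 for EPHA2, -0.03901 for EPHA7, -0.06946 for EPHB2, 0.004082 for EFNA1, 0.07691 for EFNA3, 0.144 for EFNA4-EFNA3, 0.1617 for EFNA4, 0.01616 for PLXNA3 and 0.1177 for SEMA4B. In batch 1 alone it was 0.1074 for EPHA4 and -0.3928 for EPHA7, and in batch 2 alone -0.008888 for EPHA2, 0.001333 for EPHA6, -0.5627 for EFNA2 and 0.02198 for SEMA4C. EPHA2 was at -0.0001404 when genes under a mean of 1 CPM were left out, and EPHA7 at -0.02131 with no batch term and -0.01753 with limma-voom. Leaving out single libraries gave -0.1231 to 0.212 for EPHA7, -0.05307 to 0.4482 for UNC5A and -0.163 to 0.4154 for EFNA2. EPHA4 was called lower without fast batch 1 replicate 2 (-0.2415, edgeR adjusted p = 0.00429). Members below 1 CPM rest on few counts, which limits what these libraries can show for DCC, the UNC5 receptors, SLIT1 and NTN1.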
